A study of Homo sapiens with 6 samples.

Results

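Aminoacyl-tRNA synthetases are the enzymes that join each amino acid to its tRNA. The 36 genes described here were chosen by name from the 48644 gene rows of the deposited expression table, and all 36 were found. They comprise 20 cytosolic synthetase genes and 16 mitochondrial ones, the latter being those whose names end in 2. The rule itself uses gene names alone and no measured value. The cells were KYSE70, an established human esophageal squamous carcinoma line, stably carrying a Tet-On pLKO vector whose hairpin targets SOX2 (shSOX2) or TP63 (shTP63), both of them squamous transcription factor genes. Poly(A) RNA was sequenced from 6 libraries in 4 groups: each line had 1 untreated library (day 0) and 2 libraries after 4 days of doxycycline at 50 ng/ml (day 4). The stated purpose was to find genes whose expression changes on loss of SOX2 or of TP63. No library analysed here paired doxycycline with a non-targeting hairpin, so responses to doxycycline and to a hairpin cannot be told apart.

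Most eukaryotic cells keep separate synthetases for cytosolic translation and for the mitochondrial ribosome, and the mitochondrial enzymes are encoded in the nucleus. Some enzymes serve both places: GARS (glycine) and KARS (lysine) each make a cytosolic and a mitochondrial form from a single gene. EPRS charges both glutamate and proline in the cytosol, FARSA and FARSB encode the alpha and beta subunits of a single phenylalanine enzyme, and several cytosolic synthetases are held in a multisynthetase complex by the scaffold proteins AIMP1, AIMP2 and EEF1E1. Many cytosolic synthetase genes are known targets of ATF4, the transcription factor of the amino acid and integrated stress response, which binds C/EBP-ATF composite elements.

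Values are given as log2(RPKM + 1), where RPKM is a read count divided by transcript length and library size, so levels can be compared between genes. Differences on this scale understate the change of low genes. Read depth is unknown, since the values hold no counts and were equalized between libraries, each of which tops out at 13.36. Between 21530 and 23509 genes were above 0 in 5 libraries, but only 16167 in the uninduced shTP63 library, which is the sole library of its group. SOX2 stood at 6.25 before and at 5.65 and 4.67 after induction in the shSOX2 line. TP63 stood at 3.99 before and at 2.26 and 2.11 after induction in the shTP63 line. Both knockdown targets were therefore below their own line's day 0 value after induction. In the shTP63 line, SOX2 stood at 5.69 before and at 5.55 and 5.41 after induction. The 5.65 of induced shSOX2 replicate 2 lies within that range, so its lower SOX2 rests on the single shSOX2 day 0 library. Of 10 squamous markers, 9 or 10 were at a log2 level of at least 1 in every library, against 1 or 2 of 8 fibroblast markers and 0 of the 7 leukocyte and endothelial markers with a row. Summed RPKM was 886 to 2973 for the squamous list, 2.6 to 7.82 for the fibroblast list and 0.256 to 0.861 for the last. The squamous sum was lower after induction in each line. It was 1938 before and 886 and 1104 after in shSOX2, and 2973 before and 2526 and 1079 after in shTP63. This sum came mostly from KRT5 and KRT6A, and the list includes the targets SOX2 and TP63. The median log2 change of the 10 markers was -0.35 and -0.13 in induced shSOX2 replicates 2 and 1. In induced shTP63 replicates 2 and 1 it was 0.060 and -0.76, so the list as a whole was not lower in replicate 2. The fibroblast sum came mostly from COL1A1 and THY1, while the rest of that list (DCN, LUM, PDGFRA, PDGFRB, COL1A2 and COL6A3) was at or near 0. It was lower in the uninduced libraries (2.6 and 3.27) than in the induced ones (6.21 to 7.82), and the part of either marker list in the results was not tested. The labels do not say that the day 4 libraries came from separate cultures, and their numbers could denote different hairpins. Both day 0 libraries carry number 2, so day 4 replicate 1 may have no day 0 library of its own. A p-value here covers sample-to-sample spread alone, which may be technical.

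Cytosolic synthetase genes were expressed at higher levels than mitochondrial ones. Averaged over the 6 libraries, the cytosolic genes ranged from 1.75 to 5.53 with a median of 3.39, and the mitochondrial genes from 0.62 to 3.64 with a median of 2.44. Of the 20 cytosolic genes, 18 lay above the mitochondrial median and 9 above the highest mitochondrial gene. Within each library the cytosolic median exceeded the mitochondrial one. The excess was 1.37 and 1.55 in the uninduced shSOX2 and shTP63 libraries. It was 1.20 and 1.27 in the induced shSOX2 libraries and 0.79 and 0.86 in the induced shTP63 libraries. The ratio of summed RPKM, cytosolic to mitochondrial, was 4.88 uninduced and 4.62 and 4.12 induced in shSOX2. In shTP63 it was 4.69 uninduced and 4.02 and 5.10 in induced replicates 2 and 1, so the narrower gap of medians did not hold for the sums in replicate 1. The median of all tested genes was 2.36 or 2.37 in each library, so the mitochondrial class sat close to a typical expressed gene.

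The 3 highest cytosolic genes were AARS (alanine) with a mean level of 5.53, MARS (methionine) with 5.27 and FARSA with 5.11. For AARS the shSOX2 line gave 5.27 at day 0 and 5.89 and 5.52 at day 4, and the shTP63 line gave 5.07 at day 0 and 5.71 and 5.69 at day 4. Every induced library was therefore above both uninduced ones for AARS. The 3 lowest were YARS (tyrosine) with a mean of 2.59, DARS (aspartate) with 2.28 and FARSB with 1.75. The subunit genes of the phenylalanine enzyme thus lay far apart, with mean linear values of 36.2 RPKM for FARSA and 2.43 RPKM for FARSB, although the enzyme holds them in equal numbers. The genes that serve both compartments were high within the cytosolic class, GARS at a mean level of 4.58 and KARS at 4.37, ranks 5 and 6 of 20.

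Among mitochondrial enzymes IARS2 (isoleucine) was highest, with a mean level of 3.64 and values of 3.42 to 3.94 across libraries. SARS2 (serine) followed with a mean of 2.80 and PARS2 (proline) with 2.76. The next 5 genes down to LARS2 (leucine), at 2.55, were closer to one another than their own ranges across libraries, so their order is not resolved. FARS2 (phenylalanine) at 1.36, RARS2 (arginine) at 1.16 and WARS2 (tryptophan) at 0.62 were lowest. WARS2 stood at 0.64, 0.53 and 0.61 in the shSOX2 line and at 0.81, 0.65 and 0.46 in the shTP63 line, in the order day 0, day 4 replicate 2, day 4 replicate 1. With a mean of 0.54 RPKM it was the 1 member below the minimum of 1 RPKM set for testing, which left 35 members.

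**Figure D1:**
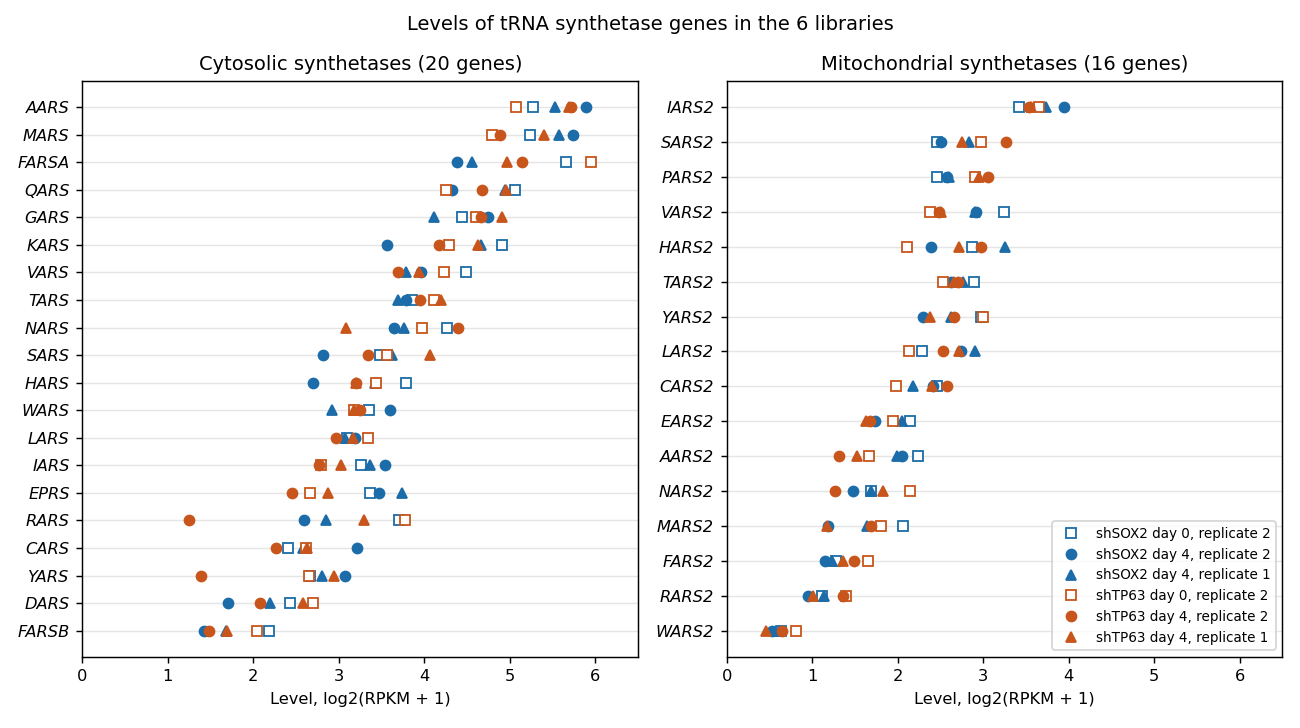
Level of each synthetase gene, as log2(RPKM + 1) on the x axis, in each of the 6 libraries, for 20 cytosolic genes (left) and 16 mitochondrial genes (right) ordered by mean level. Open squares are day 0 libraries and filled symbols day 4 libraries; cytosolic genes reach 5.53 on average and mitochondrial genes 3.64, and the RARS and YARS points of shTP63 day 4 replicate 2 lie far to the left of the others.

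Enzymes for the same amino acid were then set side by side, in 17 pairs. The cytosolic gene had the higher mean in 15 pairs and was higher in all 6 libraries in 11. The widest mean differences were FARSA over FARS2 by 3.75, AARS over AARS2 by 3.73 and MARS over MARS2 by 3.68. Isoleucine went the other way: IARS was below IARS2 in every library, by a mean of 0.52 (log2 difference -0.52). For tyrosine the mean difference between YARS and YARS2 was -0.072, but the libraries varied widely. The difference ran from -1.27 in induced shTP63 replicate 2 to 0.77 in induced shSOX2 replicate 2, and YARS was higher in 3 of the 6 libraries.

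The cytosolic minus mitochondrial difference was lower in all 4 induced libraries than in both uninduced ones in 4 of the 17 pairs, and higher in all 4 in 2 pairs. Single genes showed these patterns in 14.2% and 11.5% of all genes; the share among other gene pairs was not computed, so these counts are a description. For HARS and HARS2 (histidine) the difference was 0.91 and 1.33 in the uninduced shSOX2 and shTP63 libraries, and 0.32, 0.17, 0.22 and 0.48 in the induced ones. HARS and HARS2 lie head to head on chromosome 5, with 85 bases between their RefSeq starts (GRCh38.p14). The protocol states no strand-specific step, and whether reads near these starts were given to the wrong gene was not tested. For LARS and LARS2 the difference was 0.81 and 1.21 uninduced against 0.45, 0.17, 0.44 and 0.45 induced. The other pairs lower after induction were FARSA with FARS2 and RARS with RARS2. For AARS and AARS2 it was 3.04 and 3.41 uninduced against 3.83, 3.53, 4.40 and 4.17 induced, and MARS with MARS2 had the same order.

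**Figure D2:**
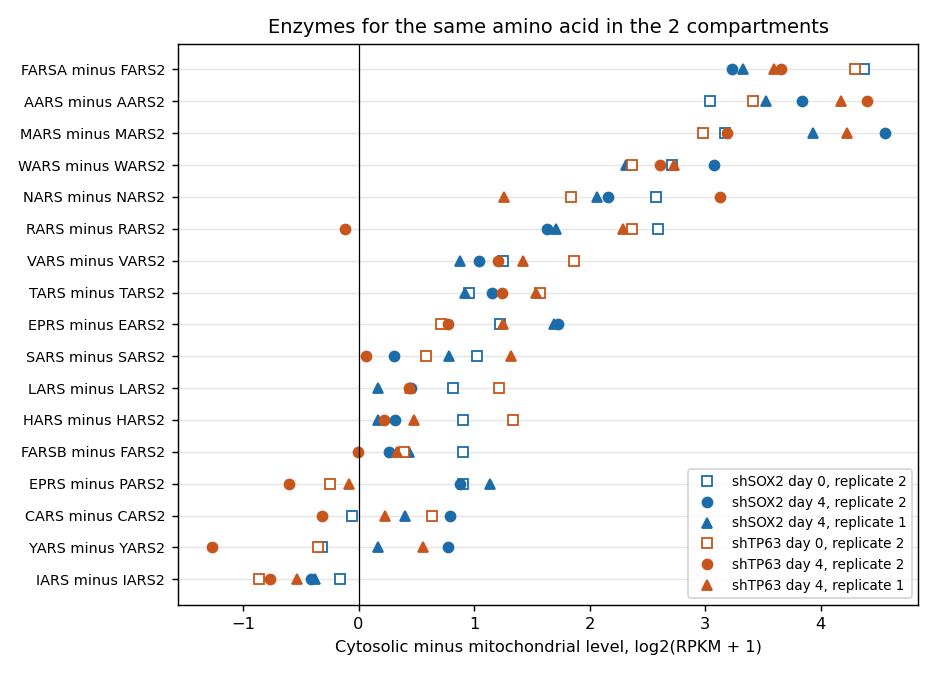
Cytosolic minus mitochondrial level, in log2(RPKM + 1), for the 17 pairs of enzymes that charge the same amino acid, in each library (open squares day 0, filled symbols day 4). Points right of 0 have the cytosolic gene higher; IARS minus IARS2 is left of 0 in all 6 libraries, and the FARSA pair sits lower in all 4 induced libraries than in both uninduced ones.

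Induction of the SOX2 hairpin left no synthetase gene past the test. limma called 0 of the 35 tested members at an adjusted p under 0.05, where it called 0% of all 10536 tested genes; 1 member had an unadjusted p under 0.05, against 10.4% of all genes. The median log2 change was -0.19 for the 20 cytosolic genes and -0.10 for the 15 mitochondrial ones, beside -0.046 for all genes. Among cytosolic genes 10 of 20 were below day 0 in both induced libraries and 6 above it, and among mitochondrial genes 8 and 4 of 15. The same held for 40.2% of all genes on the lower side and 33.3% on the higher side, and both induced libraries were set against the same single day 0 library. The members' standard errors in each line ranged from 0.28 to 0.72, and estimates beyond 2-fold, such as that of FARSA, were still not called.

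FARSA, the catalytic alpha subunit of the phenylalanine enzyme, had the smallest p. Its level was 5.65 at day 0 against 4.38 and 4.56 at day 4, which limma estimated as -1.18 ± 0.34 log2 units (SE, 2 libraries against 1, limma adjusted p = 0.393). FARSB, the beta subunit, was next, at 2.19 before and 1.42 and 1.67 after induction (-0.64 ± 0.30, limma adjusted p = 0.513). Both subunit genes were therefore below day 0 in both induced libraries. HARS went from 3.78 to 2.70 and 3.43, and VARS, the valine enzyme that associates with elongation factor 1, from 4.49 to 3.96 and 3.78. KARS stood at 4.90 before and at 3.56 and 4.66 after induction, so its log2 change of -0.79 ± 0.50 came mostly from replicate 2. RARS, the arginine enzyme, stood at 3.71 before and at 2.59 and 2.85 after (-0.98 ± 0.72, limma adjusted p = 0.645).

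On the higher side the cytosolic estimates were smaller. CARS (cysteine) had the largest, going from 2.41 to 3.21 and 2.59 (0.49 ± 0.38). AARS had a log2 change of 0.43 and MARS one of 0.42, with both induced libraries above day 0 for each. WARS, the tryptophan enzyme known for its induction by interferon, stood at 3.35 before and at 3.60 and 2.92 after, with the induced libraries on either side of day 0. GARS did the same, with 4.44 before and 4.75 and 4.11 after. The other 9 cytosolic genes ranged from NARS at -0.56 to YARS at 0.28.

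Among mitochondrial genes MARS2 had the smallest p in this line, at 2.06 before and 1.18 and 1.65 after induction (-0.65 ± 0.35, limma adjusted p = 0.553). YARS2 stood at 2.98 before and at 2.30 and 2.62 after (-0.52). LARS2 and IARS2 lay on the other side: LARS2 stood at 2.29 before and at 2.74 and 2.90 after (0.53 ± 0.31, limma adjusted p = 0.57), and IARS2 at 3.42 before and at 3.94 and 3.74 after. EARS2 (glutamate) had a log2 change of -0.25. VARS2 had one of -0.33, but the uninduced shTP63 library, at 2.37, was below the induced shSOX2 libraries at 2.92 and 2.91, so its direction depended on which line served as control. The other 9 tested mitochondrial genes lay between AARS2 at -0.21 and SARS2 at 0.22.

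**Figure D3:**
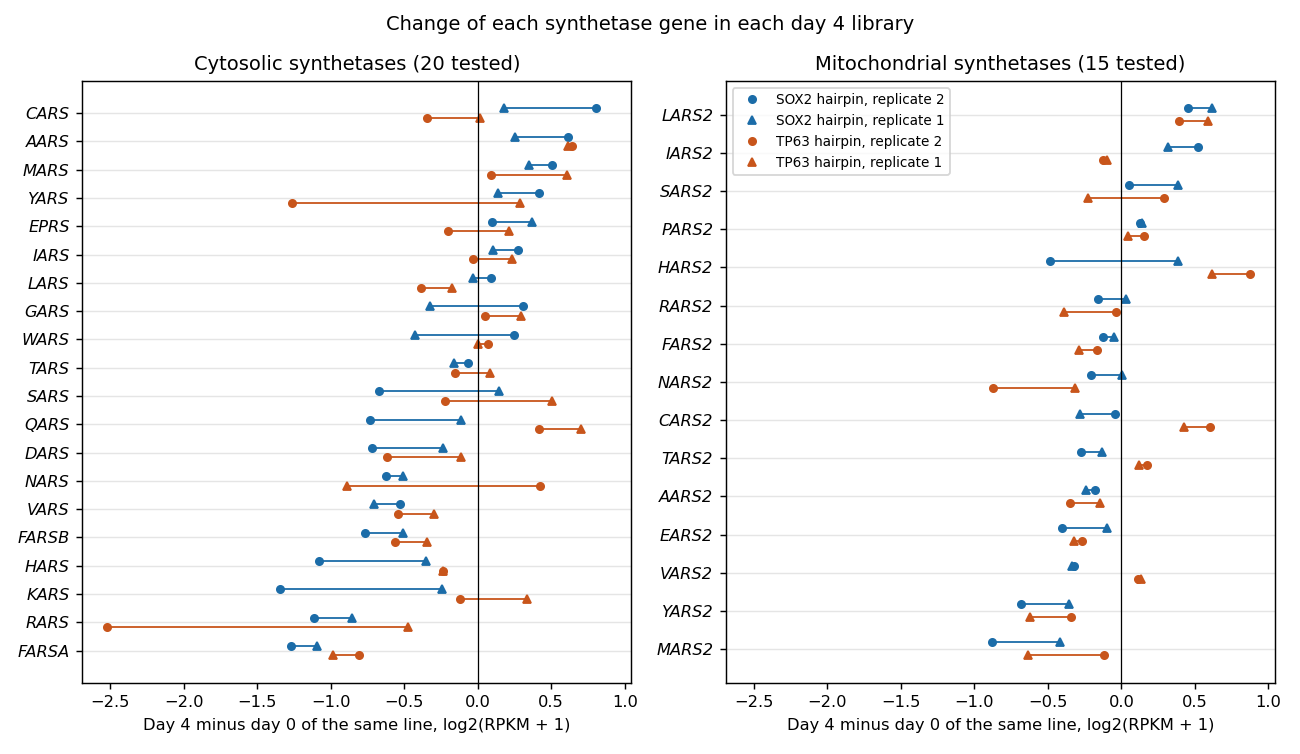
Day 4 minus day 0 of the same line, in log2(RPKM + 1) on the x axis, for each tested synthetase gene; circles are replicate 2, triangles replicate 1, and a line joins the 2 libraries of a line (blue SOX2 hairpin, orange TP63 hairpin). FARSA is left of 0 in all 4 libraries, AARS and LARS2 are right of 0 in all 4, and RARS and YARS show the widest gaps between the TP63 hairpin libraries.

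In the TP63 hairpin line limma likewise called 0 of 35 members, against 0.019% of all genes, and 1 member had an unadjusted p under 0.05, against 14.6% of all genes. The median log2 change was -0.10 for cytosolic and -0.11 for mitochondrial genes, beside 0.00039 for all genes. The cytosolic median was -0.22 without shTP63 day 4 replicate 1 and 0.050 without replicate 2, so its sign rested on 1 library, and the mitochondrial one was -0.037 and -0.14. Of the cytosolic genes 7 of 20 were below day 0 in both induced libraries and 5 above, and of the mitochondrial genes 8 and 6 of 15, against 38.5% and 37.9% of all genes. FARSA again had the smallest p, standing at 5.95 before and at 5.14 and 4.96 after induction (-0.90 ± 0.34, limma adjusted p = 0.286). FARSB went from 2.04 to 1.48 and 1.70 (-0.45). AARS went from 5.07 to 5.71 and 5.69 (0.63 ± 0.35, limma adjusted p = 0.45), with nearly the same level in both induced libraries.

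RARS had the largest estimate, at -1.50 ± 0.72, but its induced libraries disagreed: against 3.77 at day 0, replicate 2 gave 1.25 and replicate 1 gave 3.29. Replicate 2 differed from replicate 1 by -2.04 for RARS and by -1.55 for YARS, which was at 2.65 on day 0 and at 1.39 and 2.94 on day 4. Across the cytosolic class the median absolute difference between these induced libraries was 0.27, beside 0.28 for all genes, so the class as a whole was no more variable than other genes. NARS had the opposite gap, with 4.40 in replicate 2 and 3.08 in replicate 1. Without shTP63 day 4 replicate 1, so that replicate 2 stood alone, RARS was called at a log2 change of -2.52 (limma adjusted p = 0.0359), and without replicate 2 it was at -0.48. QARS, the glutamine enzyme of the cytosol, had a log2 change of 0.56, with 4.26 before and 4.67 and 4.96 after. VARS had one of -0.42. KARS went from 4.29 to 4.17 and 4.62, GARS from 4.60 to 4.66 and 4.90, and WARS from 3.18 to 3.25 and 3.18; for KARS the induced libraries lay on either side of day 0. The other members of the class, NARS apart, ranged from DARS at -0.37 to MARS at 0.35.

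The mitochondrial genes with the smallest p in this line were HARS2 and NARS2 (asparagine). HARS2 stood at 2.11 before and at 2.98 and 2.72 after induction (0.74 ± 0.42, limma adjusted p = 0.457), but at 2.87 in the uninduced shSOX2 library, which lies between its induced values. NARS2 went from 2.14 to 1.27 and 1.83 (-0.59). CARS2 went from 1.98 to 2.58 and 2.40 (0.51). The uninduced shSOX2 library, at 1.69 for NARS2 and 2.46 for CARS2, likewise lay between the induced shTP63 values of each gene. LARS2 went from 2.13 to 2.53 and 2.72 (0.49), YARS2 from 3.00 to 2.66 and 2.38 (-0.48) and MARS2 from 1.81 to 1.69 and 1.18 (-0.37). LARS2, YARS2 and MARS2 were thus on the same side as in the SOX2 hairpin line. Of the 15 tested mitochondrial genes, 5 were below day 0 in all induced libraries of both lines and 2 above. The lines went opposite ways for 4 (CARS2, IARS2, TARS2 and VARS2), and 4 were mixed. These counts have no share of all genes beside them and are a description. The other 9 tested mitochondrial genes lay between EARS2 at -0.29 and TARS2 at 0.15.

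Over both lines together, the mean day 4 response gave FARSA a log2 change of -1.04 ± 0.24 (limma adjusted p = 0.0977), FARSB one of -0.55 ± 0.21 (limma adjusted p = 0.207) and RARS one of -1.24 ± 0.51 (limma adjusted p = 0.226). limma called 0 of 35 members here, against 0.0569% of all genes, and 3 members had an unadjusted p under 0.05, against 20.6% of all genes. All 4 induced libraries were below both uninduced ones for 7 of 35 members, against 14.2% of all genes: FARSA, FARSB, HARS, RARS, VARS, MARS2 and YARS2. All 4 were above both for AARS (0.53 ± 0.25, limma adjusted p = 0.277) and LARS2 (0.51 ± 0.22, limma adjusted p = 0.247), 2 of 35 against 11.5% of all genes. WARS had a mean response of -0.027, GARS one of 0.082 and KARS one of -0.34. Without the uninduced shTP63 library, a setting chosen after the data were seen, FARSA had -0.89 (limma adjusted p = 0.321).

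The responses of the lines were compared through their difference, TP63 response minus SOX2 response. limma called 0 of 35 members, as for 0% of all genes, and 0 members against 4.55% of all genes had an unadjusted p under 0.05. The smallest p values belonged to QARS with a difference of 0.98 ± 0.56, KARS with 0.90 ± 0.71 and CARS with -0.66 ± 0.54 among cytosolic genes, and to CARS2 with 0.68, HARS2 with 0.80 and IARS2 with -0.53 among mitochondrial ones (limma adjusted p = 0.995 for each). The standard errors of these differences ranged from 0.39 to 1.02, so differences of 2-fold could have been missed for most members. WARS had a difference of 0.13 and GARS one of 0.18.

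Between the induced lines, shTP63 minus shSOX2, limma called 0 of 35 members, against 0.759% of all genes, and 2 members had an unadjusted p under 0.05, against 23% of all genes. The 2 were EPRS and AARS2. EPRS stood at 3.46 and 3.74 in the induced shSOX2 libraries and at 2.46 and 2.87 in the induced shTP63 libraries (-0.93 ± 0.29, limma adjusted p = 0.137). It already differed before induction, with 3.37 in the shSOX2 line and 2.66 in the shTP63 line. AARS2 stood at 2.05 and 2.00 against 1.32 and 1.52 (-0.61 ± 0.24, limma adjusted p = 0.19), and it too differed before induction, with 2.23 and 1.66. FARSA had a difference of 0.58, IARS one of -0.55, VARS2 one of -0.41 and PARS2 one of 0.42. WARS, GARS and KARS differed by -0.047, 0.35 and 0.29. The induced shTP63 libraries were both above the induced shSOX2 ones for 4 members and both below for 8, against 30.5% and 26.6% of all genes. Without shTP63 day 4 replicate 1, YARS was the 1 member called, on the single remaining library with its low value.

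Promoter sequence was then examined for the element through which ATF4 acts. Of the 36 members, 30 matched an entry of the RefSeq promoter table (GRCh38.p14, from 250 bases before to 50 after each annotated start): 16 cytosolic and 14 mitochondrial. DARS, LARS, VARS, YARS, AARS2 and VARS2 were not matched. The C/EBP-ATF element was searched as TGATGNAA on both strands. It was present for 7 of 16 cytosolic genes (43.8%) and for 1 of 14 mitochondrial genes (7.14%), beside 4.46% of all 27305 genes in the table. Of 25 matched genes of the list of ATF4 pathway and amino acid response genes, 8 (32%) held it. The 8 windows are shown because the cytosolic genes are described by presence of this element after them. Each runs 5′ to 3′ on the strand of the gene, with the match in capitals; TTGCATCA is the element read on the opposite strand.
AARS, chr16:70289675-70289704, minus strand: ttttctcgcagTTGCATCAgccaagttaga
CARS, chr11:3057407-3057436, minus strand: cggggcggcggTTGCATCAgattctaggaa
GARS, chr7:30594834-30594863, plus strand: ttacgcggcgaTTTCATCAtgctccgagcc
IARS, chr9:92293692-92293721, minus strand: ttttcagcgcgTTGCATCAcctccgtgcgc
MARS, chr12:57488053-57488082, plus strand: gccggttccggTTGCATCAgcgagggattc
NARS, chr18:57621804-57621833, minus strand: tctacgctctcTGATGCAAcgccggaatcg
TARS, chr5:33440956-33440985, plus strand: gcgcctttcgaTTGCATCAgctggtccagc
YARS2, chr12:32756076-32756105, minus strand: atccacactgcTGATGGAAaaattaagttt

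In AARS, CARS, IARS, MARS, NARS and TARS the match had the same letters, TGATGCAA, on either strand, while GARS and YARS2 differed at the open position N. The centre of the match lay 183 bases before the start of AARS and 193 before that of YARS2, but within 29 bases of the start in the other 6 genes. A match is a description of these letters and not a measured binding site. One other motif was searched on both strands, the element of NRF1, a regulator of nuclear genes for mitochondrial proteins. It was present for 3 of 16 cytosolic and 3 of 14 mitochondrial genes, beside 6.98% of all genes.

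After SOX2 hairpin induction the 7 cytosolic genes with the C/EBP-ATF element had a median log2 change of 0.19 (from -0.56 for NARS to 0.49 for CARS), with 4 above and 2 below day 0 in both induced libraries. The 9 matched cytosolic genes without it had a median of -0.64 (from -1.18 for FARSA to 0.23 for EPRS), with 1 above and 6 below in both. Of all genes 33.3% were above and 40.2% below in both, and the ranges of these small groups overlap. The medians were 0.31 and -0.76 in replicate 2 and 0.10 and -0.35 in replicate 1. After TP63 hairpin induction the medians were 0.10 with the element (3 of 7 genes above and 0 below day 0 in both induced libraries) and 0.0037 without it (2 of 9 above and 4 below), against 37.9% and 38.5% of all genes. In that line the medians were 0.052 and -0.23 in replicate 2 and 0.24 and 0.0013 in replicate 1, and with the uninduced shSOX2 library as the control they were 0.043 and -0.58. This split was made after the values were seen and has no test. With the uninduced shTP63 library as the control for the induced shSOX2 libraries, the medians were 0.28 with and -0.34 without the element.

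**Figure D4:**
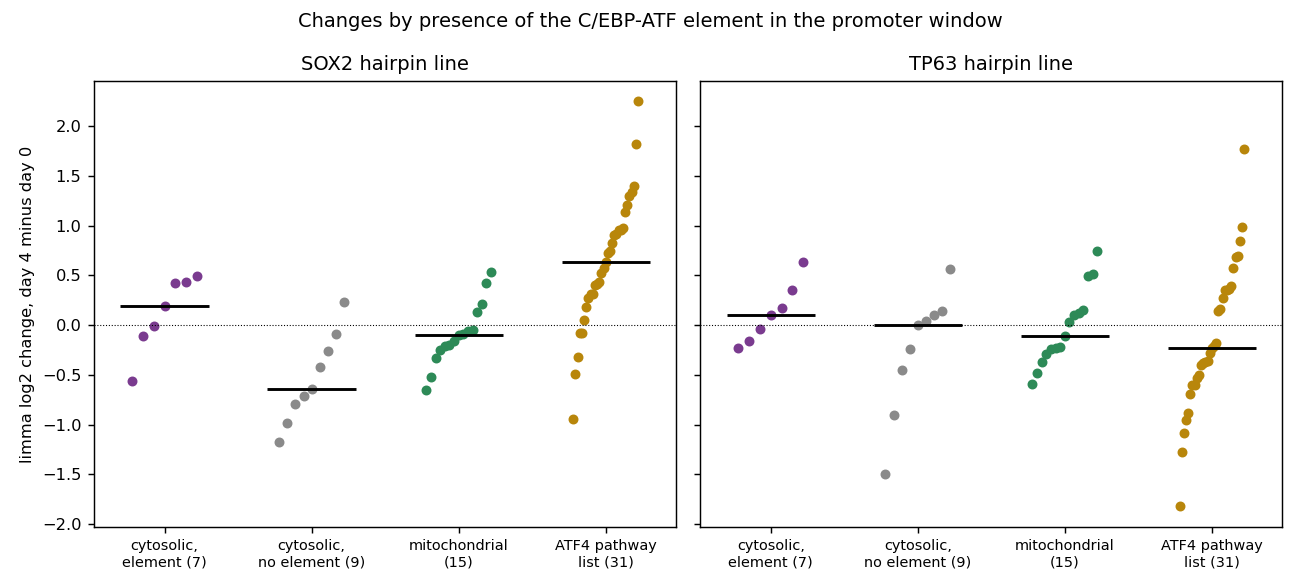
limma log2 change from day 0 to day 4 (y axis, log2(RPKM + 1)) for cytosolic synthetase genes with and without the C/EBP-ATF element in their promoter window, for mitochondrial synthetase genes and for the list of ATF4 pathway genes, in each hairpin line; a point is a gene and a bar the median. In the SOX2 hairpin line the bars stand at 0.19, -0.64, -0.10 and 0.63 from left to right, and in the TP63 hairpin line at 0.10, 0.0037, -0.11 and -0.23.

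The list of ATF4 pathway and amino acid response genes, of which 31 of 33 were tested, had a median log2 change of 0.63 in the SOX2 hairpin line and -0.23 in the TP63 hairpin line. limma called 0 of the 31 in either induction, against 0% and 0.019% of all genes in the SOX2 and TP63 hairpin lines. DDIT4, an inhibitor of mTORC1, had a log2 change of 1.82 ± 0.35 in the SOX2 hairpin line, SESN2, a leucine sensor of the same pathway, one of 1.34 ± 0.33, and SLC1A5, a glutamine transporter, one of 1.29 ± 0.34 (limma adjusted p = 0.3, 0.349 and 0.36). Each was above day 0 in both induced libraries, but they were picked by smallest p in these same libraries. SESN2 stood at 3.10 and 2.69 induced, against 1.56 in the uninduced shSOX2 library and 2.44 in the uninduced shTP63 one. Both induced libraries were above day 0 for 24 of the 31 listed genes, against 33.3% of all genes. For 3 of the 31 (ATF5, MTHFD2 and DDIT3) both were below it, against 40.2% of all genes. The cytosolic synthetases with the element had a smaller median than this list in that line. In the TP63 hairpin line the smallest p belonged to SLC7A5, the large neutral amino acid transporter, at -1.82 ± 0.39, to the stress protein gene NUPR1 at 1.77 ± 0.64 and to SLC3A2, the partner chain of SLC7A5, at -0.96 ± 0.35 (limma adjusted p = 0.137, 0.272 and 0.275).

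Between the induced lines limma called 3 of the 31 lower with the TP63 hairpin, where it called 0.759% of all genes in either direction. All 3 encode transporters, or a transporter chain, for amino acids that synthetases use. SLC7A5 stood at 8.65 and 8.30 in the induced shSOX2 libraries and at 6.49 and 5.82 in the induced shTP63 libraries (-2.32 ± 0.32, limma adjusted p = 0.0402). SLC1A5 stood at 7.42 and 7.16 against 5.38 and 5.32 (-1.93 ± 0.28, limma adjusted p = 0.0448), and SLC3A2 at 7.43 and 7.23 against 5.77 and 5.39 (-1.75 ± 0.28, limma adjusted p = 0.0483). The groups did not overlap for any of the 3, which being called on these same libraries nearly ensures. Without overlap, 17 of the 31 listed genes were lower, against 26.6% of all genes. Before induction SLC3A2 already differed, with 7.28 in the shSOX2 line and 6.53 in the shTP63 line, as did SLC1A5 with 5.99 and 5.58, while SLC7A5 was at 7.95 and 7.97. The synthetase genes for the leucine, isoleucine, methionine and glutamine that these transporters carry had differences of -0.063 for LARS, -0.55 for IARS, -0.51 for MARS and 0.18 for QARS, none of which passed. The 3 calls were lost without either induced shSOX2 library (limma adjusted p = 0.161 to 0.243), with no filter (0.286) and with a pseudocount of 5 (0.052 to 0.0655), and that of SLC3A2 also at a mean of at least 5 RPKM (0.0519) and with a pseudocount of 0.1 (0.0524). The differences stayed below 0 in each of these limma fits.

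Other genes of tRNA charging were described from lists of partners. The scaffold genes of the multisynthetase complex had estimates below 0 in both lines, beside 54.0% and 49.9% of all genes in the SOX2 and TP63 hairpin lines. limma called 0 of 3 in either, against 0% and 0.019% of all genes, shares that also stand beside the counts of called genes in the lists that follow. EEF1E1 stood at 2.44 before and at 1.35 and 1.73 after SOX2 hairpin induction (-0.90 ± 0.31, limma adjusted p = 0.431), and at 2.33 before and 1.82 and 1.91 after TP63 hairpin induction (-0.46). AIMP1 had -0.29 and -0.58 in the SOX2 and TP63 hairpin lines, and AIMP2 -0.30 and -0.030. For AIMP2 the induced shTP63 libraries, at 4.81 and 4.57, lay on either side of day 0 at 4.72. The 8 synthetases of the complex (EPRS, IARS, LARS, MARS, QARS, RARS, KARS and DARS) had medians of -0.20 and 0.054 with 0 of 8 called. Estimates were above 0 for 4 and 5 of them, beside 4843 and 5273 of all 10536 genes.

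Of the listed genes that modify, export or proofread tRNA, all 10 tested were below day 0 in both induced libraries of the TP63 hairpin line (median -0.57). In the SOX2 hairpin line 8 of 10 were (median -0.49). The shares of all genes were 38.5% and 40.2% in the TP63 and SOX2 hairpin lines, and limma called 0 of 10 in either. TRMT6, a subunit of the methyltransferase that makes m1A58, had -0.74 ± 0.32 and -0.97 ± 0.32 in the SOX2 and TP63 hairpin lines. NSUN2, a tRNA cytosine methyltransferase, had -0.94 ± 0.36 in the SOX2 hairpin line, AARSD1, an editing protein for mischarged alanine tRNA, -0.56 there, PUS1, a pseudouridine synthase, -1.01 ± 0.37 in the TP63 hairpin line and DTD1, a deacylase that removes D-amino acids from tRNA, -0.70 there (limma adjusted p = 0.243 to 0.536 for these 5 genes).

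Elongation factor genes had medians of 0.0079 and -0.083 over 8 tested genes, with 0 called. EIF5A had a log2 change of -0.57 in the SOX2 hairpin line and of -1.34 ± 0.34 in the TP63 hairpin line (limma adjusted p = 0.172), where EEF1A1, which delivers charged tRNA to the ribosome, had 0.91 ± 0.31 (limma adjusted p = 0.249). EEF1A1 had 0.30 and EEF1D -0.46 in the SOX2 hairpin line, and TUFM, the mitochondrial elongation factor Tu, -0.44 in the TP63 hairpin line. Genes of tRNA processing and charging in mitochondria had medians of -0.36 and -0.15 over 6 tested genes, with 0 called. QRSL1, a subunit of the amidotransferase that makes glutaminyl-tRNA in place of a mitochondrial glutamine enzyme, had -0.47, the tRNA 3′ processing nuclease ELAC2 -0.65 and PTCD1 -0.47 in the SOX2 hairpin line. In the TP63 hairpin line MTFMT, which formylates initiator methionyl-tRNA, had 0.54, PTCD1 -0.37 and ELAC2 -0.36.

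Stress kinase and sensor genes had medians of -0.27 and -0.0039 over 8 tested genes, with 0 called. EIF2S1, the eIF2 subunit that stress kinases phosphorylate, had -0.79 ± 0.41 in the SOX2 hairpin line and -1.17 ± 0.41 in the TP63 hairpin line. In the SOX2 hairpin line EIF2B5 had -0.69 and EIF2AK4, which encodes the uncharged-tRNA sensor kinase GCN2, 0.55. In the TP63 hairpin line PPP1R15A, which directs a phosphatase to eIF2, had -1.06 ± 0.36 and EIF2AK1 0.55. PPP1R15A stood at 4.84 in the uninduced shTP63 library but at 3.98 in the uninduced shSOX2 one, beside 3.91 and 3.63 in the induced shTP63 libraries.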

How the data were processed

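Poly(A) RNA of 6 libraries was measured. The deposited table names its values RPKM; they were read as log2(RPKM + 1) because they run from 0 to 13.36, with base 2 assumed. The same highest value in all libraries, and steps of 1/14000 in 100% of values above 0, fit log2 values that the authors quantile-normalized, which removes depth; this is read from the values. The submitters' processing notes give hg19 as the build, and the sources used here name no aligner, counter or annotation. The design allowed for linear RPKM, which would have been put on a log2 scale. Since the values were read as log2 already, no further log was taken. Genes with a mean of at least 1 RPKM over 6 libraries were tested (10536). limma 3.58.1 (R 4.3.3) was fitted with 4 group means, a mean-variance trend, 2 residual and about 5.53 prior degrees of freedom, two-sided, with Benjamini-Hochberg adjustment over all genes and calls under 0.05; ± values are its standard errors, and the spread of the single day 0 libraries was taken from the induced pairs. The fit was tested on simulated data. Members, lists and motifs were chosen with earlier results of these data known. The genes named in each line were, per class, the 6 members with the smallest p (3 in other contrasts), the 3 highest and lowest, and WARS, WARS2, GARS and KARS; per other list, called genes and the 3 smallest p. A few further members are named where counts or sequences called for them, after their values were seen. Symbols follow the file; promoters were matched by symbol, or by symbol with 1 added. Alternatives changed filter, pseudocount, scaling, trend, control, libraries and block.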

Additional observations from a re-analysis of the deposited data

How the results depend on the processing

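Of 242 recomputed counts and medians 223 stayed within the spread between replicates or, for counts, at 0, and of 1213 recomputed changes of named genes 1164 kept their sign and their side of the threshold. Some of these values could not move. The fit without a mean-variance trend leaves every estimate as it was, and leaving out an induced library does not alter the other line's estimates. The totals therefore overstate how far the results were put to a test. Read depth is unknown, and single day 0 libraries limit every call. The cause of the shifts given here was not tested. Over all tested genes limma called 0 in the SOX2 hairpin line (up to 11 among the alternatives), 2 in the TP63 hairpin line (0 to 291), 0 for the difference of responses (up to 5), 80 between the induced lines (0 to 324) and 6 over both lines (0 to 263). The count of synthetase genes called went from 0 to 1 without shTP63 day 4 replicate 1 in the TP63 hairpin line and over both lines (RARS both times) and between the induced lines (YARS); it was 0 in every other alternative run. At a mean of at least 5 RPKM, which leaves fewer genes, the medians were -0.10 for cytosolic genes in the SOX2 hairpin line and, for mitochondrial genes, 0.10 in the TP63 hairpin line and 0.12 over both lines. With both uninduced libraries as control the medians were 0.39 for cytosolic genes with TGATGNAA in the SOX2 hairpin line and -0.35 for those without it in the TP63 hairpin line. With the other line's uninduced library they were -0.34 for cytosolic genes without TGATGNAA in the SOX2 hairpin line and, in the TP63 hairpin line, -0.30 for cytosolic genes, -0.024 for mitochondrial genes and -0.58 for cytosolic genes without TGATGNAA. Leaving out 1 library at a time, the median ran from -0.30 to -0.19 for cytosolic genes in the SOX2 hairpin line, from 0.052 to 0.24 for cytosolic genes with TGATGNAA and from -0.23 to 0.0037 for those without in the TP63 hairpin line, and from -0.15 to 0.16 for mitochondrial genes between the induced lines.

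Changes that kept their sign could still shrink with the other line's uninduced library as the control. SESN2 was then at 0.45, ELAC2 at -0.091 and AARSD1 at -0.14 in the SOX2 hairpin line. PPP1R15A was then at -0.21, NARS2 at -0.14 and CARS2 at 0.030 in the TP63 hairpin line. The named genes whose change took another sign in an alternative were not called by limma in that contrast. In the SOX2 hairpin line VARS2 was at 0.11 with both uninduced libraries as control and at 0.54 with the other line's, where WARS was at 0.084 and EIF2B5 at 0.22; GARS was at 0.055 with median-ratio scaling. In the TP63 hairpin line with the other line's control QARS was at -0.24, HARS2 at -0.024, WARS at -0.14, KARS at -0.51 and AIMP2 at 0.14, and with both controls WARS was at -0.050, KARS at -0.20 and AIMP2 at 0.056. With median-ratio scaling WARS was at 0.0072 over both lines. Leaving out 1 library at a time, WARS ran from -0.43 to 0.25 and GARS from -0.33 to 0.31 in the SOX2 hairpin line, KARS from -0.12 to 0.33 and AIMP2 from -0.15 to 0.090 in the TP63 hairpin line, WARS from -0.21 to 0.47 and GARS from -0.13 to 0.50 for the difference of responses, WARS from -0.39 to 0.29 and KARS from -0.26 to 0.84 between the induced lines, and WARS from -0.20 to 0.14 and GARS from -0.076 to 0.24 over both lines.

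The title numbers were also fitted as a replicate block. Deviations of same-numbered day 4 libraries from their group means correlated at -0.074 across 10536 genes and the labels state no pairing, so these libraries were taken to share only a number across lines; this does not settle whether a number marks a hairpin within a line. With the block limma called 0 synthetase genes in any contrast, and between the induced lines SLC1A5 and SLC3A2 were not called (limma adjusted p = 0.0612 and 0.065). The median with the block was -0.20 for mitochondrial genes in the SOX2 hairpin line and -0.28 for cytosolic genes without TGATGNAA in the TP63 hairpin line. With the block WARS was at 0.098 and GARS at 0.087 in the SOX2 hairpin line, KARS at -0.28 and AIMP2 at 0.067 in the TP63 hairpin line, and WARS at 0.16 over both lines.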
